A study of Mus musculus with 80 samples.

Results

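Transcripts of 9 transcription factors that define macrophages and microglia were followed through every preparation of the series: Spi1 (which encodes PU.1), Irf8, Sall1, Mef2a, Mef2c, Runx1, Cebpa, Cebpb and Cebpd. They were taken by gene symbol, 9 of the 15919 genes listed for the sort comparison and 9 of the 16000 genes listed for the cell preparation comparison. Spi1 was listed under its older symbol Sfpi1 and was matched by its gene identifier, 20375. All 9 passed the filter for low counts in every comparison, so no member was lost.

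The RNA came from brains of Cx3cr1-NuTRAP mice of both sexes, genotype Cx3cr1(Jung)-cre/Ert2+;NuTRAP+, all given tamoxifen (100 mg/kg, ip) at about 3 months of age. Tamoxifen activates the cre recombinase made by Cx3cr1+ cells, which then put an eGFP tag on their ribosomes, and brain macrophages other than microglia that express Cx3cr1 can carry the tag as well. Translating ribosome affinity purification (TRAP) pulls the tagged ribosomes down with an anti-GFP antibody, and Input is the homogenate before the pull-down. In the sort comparison (48 libraries), Tissue is brain homogenized directly, Cell is a suspension made by enzymatic and mechanical dissociation, and 4 sorts started from such a suspension: autoMACS (magnetic CD11b selection), autoMACS to Tyto (the same cells then sorted on a MACSQuant Tyto cartridge), Tyto alone, and FACSAria. Each fraction held 4 mice per group, except 5 for Tyto and 3 for autoMACS to Tyto. In the cell preparation comparison (32 libraries, 4 mice per group and fraction), Tissue was set beside Cell (-) Inhibitors, Cell (+) Inhibitors, in which actinomycin D, triptolide and anisomycin were present during dissociation, and Dounce, a purely mechanical dissociation in the cold. Material was not pooled between mice. In the cell preparation comparison both Cell groups came from mice 156, 157, 1361 and 1362, and Dounce from mice 179 to 182. There preparation and animal cannot be told apart, except between the Cell groups. The Tissue groups of both experiments came from the same 4 mice (946 to 949), which also gave the Cell groups of the sort comparison, so comparisons with Tissue in both experiments are not independent. No group without the tag or without tamoxifen was analysed here.

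PU.1, encoded by Spi1, is the ETS family factor on which all macrophages depend, and IRF8 binds DNA together with it. Much of the PU.1 binding in macrophages is shared between tissues, and further factors set what is particular to each tissue. In the brain SALL1 is the factor most restricted to microglia, MEF2A and MEF2C act at microglial enhancers, and RUNX1 works with its partner CBFB from the earliest blood progenitors on. C/EBPα takes part in myeloid commitment, while Cebpb and Cebpd are induced quickly by inflammatory signals and by stress, so that their products bind at cytokine and acute phase genes. Mef2c is also well known from excitatory neurons, and Sall1 from neural progenitors and kidney.

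In the mm10 build Spi1 lies at chr2:91096797-91115756 on the plus strand, Irf8 at chr8:120736376-120756692 (plus), Sall1 at chr8:89027243-89044162 (minus), Mef2a at chr7:67233827-67372858 (minus), Mef2c at chr13:83504034-83667079 (plus), Runx1 at chr16:92601466-92826066 (minus), Cebpa at chr7:35119293-35121931 (plus), Cebpb at chr2:167688915-167690418 (plus) and Cebpd at chr16:15887286-15889545 (plus). The values are gene-level, over all exons. The promoters of Cebpb and Cebpa are shown because these genes had the lowest adjusted p of the 9 when inhibitors were added to the dissociation. Each is the 250 bases before the transcription start in the RefSeq annotation of GRCm38.p6, the first at chr2:167688665-167688914 and the second at chr7:35119043-35119292, both on the plus strand. Capitals mark TGACG or its reverse complement in the first, the core letters of the cyclic AMP response element, and TATAAA, the TATA box, in the second.
Cebpb: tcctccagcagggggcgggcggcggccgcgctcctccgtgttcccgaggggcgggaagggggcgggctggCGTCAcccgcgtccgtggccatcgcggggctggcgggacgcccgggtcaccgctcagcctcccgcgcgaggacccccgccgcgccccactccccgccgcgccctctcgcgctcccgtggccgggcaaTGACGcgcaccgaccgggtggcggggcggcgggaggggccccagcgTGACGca
Cebpa: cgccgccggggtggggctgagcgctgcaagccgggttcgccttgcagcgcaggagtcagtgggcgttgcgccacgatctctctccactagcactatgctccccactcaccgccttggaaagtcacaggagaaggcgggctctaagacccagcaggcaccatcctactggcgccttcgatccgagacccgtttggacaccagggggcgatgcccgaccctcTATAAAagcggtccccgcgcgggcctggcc
The Cebpb window held 3 matches to TGACG, the nearest 3 bases from the start, and the Cebpa window held none. Over 32851 promoters of the same length 17.8% held TGACG on either strand, and 0.688% held 3 or more matches. TATAAA stood 25 bases before the Cebpa start, was absent from the Cebpb window, and was found in 12.4% of all promoters on either strand. The C/EBP palindrome TTGCGCAA (0.164% of promoters), the AP-1 site TGANTCA (6.75%) and the PU.1 core GAGGAAG (10.6%), searched on both strands, were in neither window. A match is a description of the letters and not of a bound site.

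Library totals were 7129464 to 20168116 counts in the sort comparison. They were 2471448 to 14650287 counts among the other 32 libraries, of which Dounce-TRAP had the fewest (median 3403594). Levels are given as CPM, the counts scaled to a common library total, after trimmed mean of M values (TMM) scaling. Differences are log2 fold changes ± SE from edgeR's quasi-likelihood test with Benjamini-Hochberg adjustment over all genes tested, and a gene was called when its adjusted p was below 0.1 and its change exceeded 2-fold. The groups differed in how much of the RNA was microglial. The mean log2(CPM + 1) of the study's 282 microglial markers (less the 3 that are members, Cebpa, Irf8 and Runx1) was 2.67 in Tissue-Input, 5.49 in Tissue-TRAP, 5.90 in Cell-Input, 8.13 in Cell-TRAP and 8.38 to 8.44 in the TRAP fractions of the 4 sorts. Over the 97 neuronal markers it was 6.59, 6.40, 4.03, 2.30 and 0.32 to 0.41 in the same order. The microglial marker Tmem119 was present in every TRAP library, at 544 to 622 CPM in Tissue-TRAP and 3039 to 3678 CPM in Cell-TRAP. Comparisons are also given on a second scale, in which libraries were scaled to the other microglial markers, so that a value of 0 means that the gene moved with those markers. Of these 279 markers each fit used those with counts in all its libraries, so the set can differ between fits. In these bulk samples a smaller number of cells and less RNA per cell cannot be told apart. For the cell preparation comparison the paper reports the lowest RNA integrity in Dounce-Input. It also describes more coverage bias toward the poly(A) end of transcripts in Tissue and Dounce than in Cell with or without inhibitors. Whether either difference moved the contrasts with Tissue or Dounce in that experiment was not tested.

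Whether the pull-down from undissociated brain enriches these transcripts was read from Tissue-TRAP against Tissue-Input. The factors were enriched to very different degrees, from Spi1 at the top to Mef2c, which was not called. Of the 9, 8 were called, all higher in Tissue-TRAP, against 11.1% of the 15825 genes tested. Among these 1756 called genes 1460 were higher. Spi1 stood at 3.79, 4.64, 5.02 and 2.55 CPM in Tissue-Input of mice 946, 947, 948 and 949, and at 108, 99.7, 139 and 114 CPM in Tissue-TRAP (log2 change 5.05 ± 0.14, adjusted p = 2.11e-30 by edgeR). Every TRAP library lay far above every Input library. Irf8, its partner, went from 3.75 to 5.93 CPM in Input to 75.02 to 116 CPM in TRAP (4.46 ± 0.13), and Runx1 from 1.07 to 1.28 CPM to 17.0 to 22.0 CPM (4.26 ± 0.18). Of the 282 microglial markers 262 were called higher, with a median change of 3.81, against a median of 0.03 over all genes, so these 3 members lay above the marker median.

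The remaining members were enriched less. Cebpa rose by 3.44 ± 0.12, Sall1 by 2.51 ± 0.11, Cebpd by 2.20 ± 0.16, Cebpb by 2.04 ± 0.21 and Mef2a by 1.24 ± 0.21 (adjusted p at most 7.62e-06). Mef2c was already at 238, 224, 236 and 260 CPM in Tissue-Input, and reached 315, 276, 335 and 449 CPM in Tissue-TRAP, a change of 0.72 ± 0.09 (adjusted p = 1.16e-08) that stayed within 2-fold although the groups did not overlap. Neuronal transcripts remained in the pull-down, since Snap25, a synaptic protein gene, stood at 1605 to 1796 CPM in Tissue-TRAP. The part of neuronal RNA in the level of Mef2c was not tested. Relative to the other microglial markers, Spi1 was still called higher in Tissue-TRAP than in Tissue-Input (1.19), and Irf8 (0.61) and Runx1 (0.42) were not called. The sign turned for Mef2c (-3.15), Mef2a (-2.63), Cebpb (-1.79), Cebpd (-1.61), Sall1 (-1.34) and Cebpa (-0.39). Of these all but Cebpa were called lower in Tissue-TRAP.

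**Figure D1:**
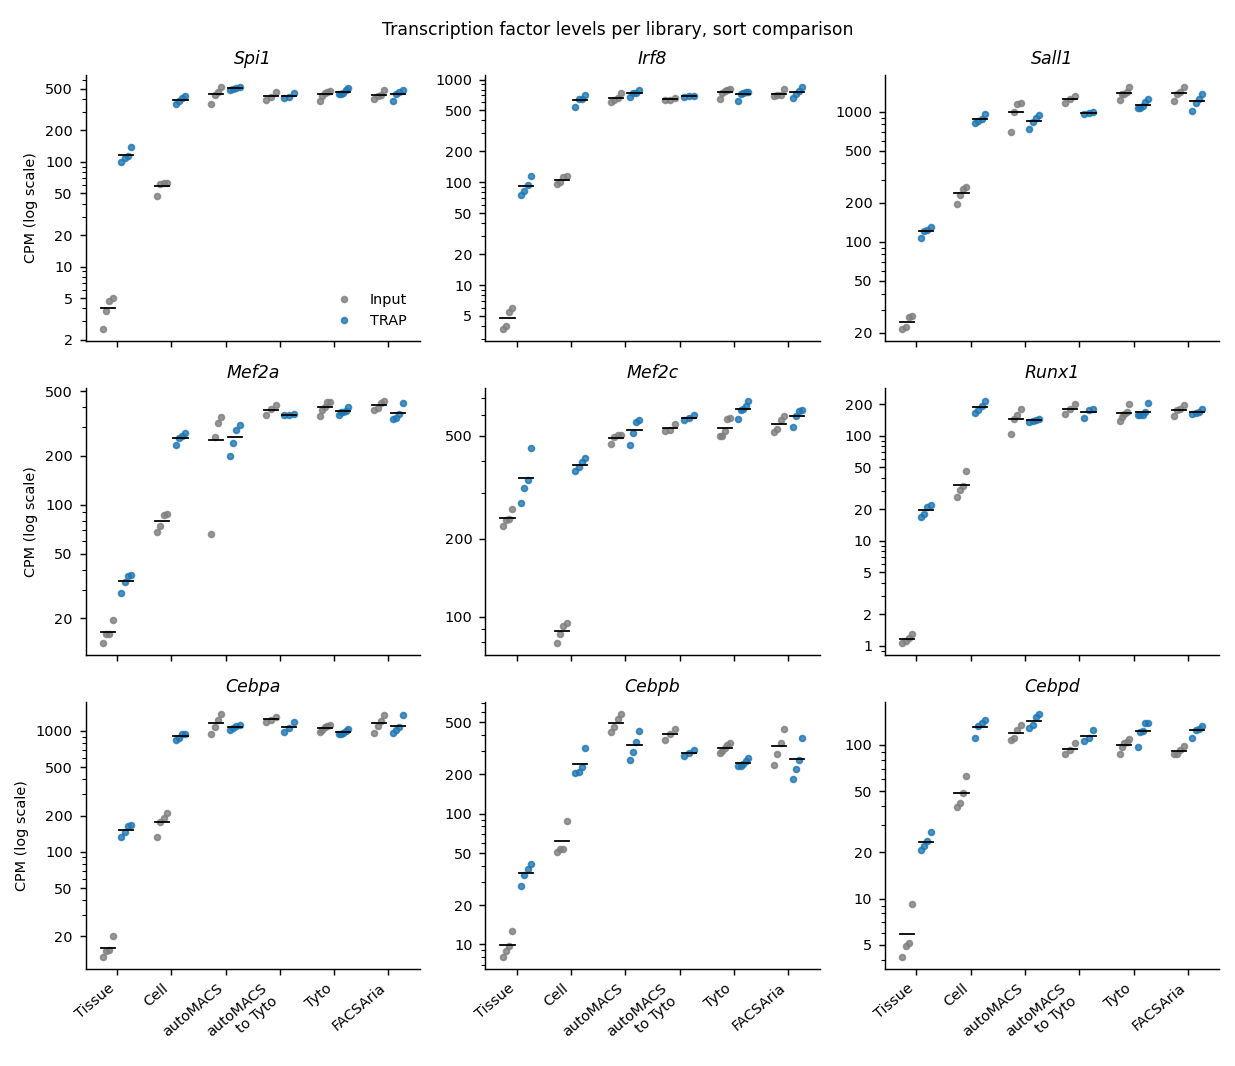
Levels of the 9 transcription factors in each library of the sort comparison, as CPM on a log axis, with TRAP and Input libraries of Tissue, Cell and the 4 sorts; every point is 1 library. Spi1 rises from 2.55 to 5.02 CPM in Tissue-Input to 99.7 to 139 CPM in Tissue-TRAP, while Mef2c starts at 224 to 260 CPM in Tissue-Input and is lowest in Cell-Input, at 79.5 to 94.9 CPM.

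The effect of dissociation on the ribosome-bound transcripts was read from Cell-TRAP against Tissue-TRAP in the same 4 mice. On the scale of total RNA 8 of the 9 factors rose, least for Spi1 and most for Runx1, and Mef2c did not, while 54.3% of the 14953 genes tested were called in this comparison. Runx1 stood at 18.0, 21.2, 22.0 and 17.0 CPM in Tissue-TRAP of mice 946 to 949 and at 176, 217, 192 and 163 CPM in Cell-TRAP (3.26 ± 0.11, adjusted p = 7.13e-19 by edgeR). Sall1 went from 123, 107, 131 and 121 CPM to 847, 822, 964 and 884 CPM (2.87 ± 0.09, adjusted p = 6.05e-19). In both genes all Cell-TRAP libraries lay above all Tissue-TRAP libraries.

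Spi1 rose least of those called, from 108, 99.7, 139 and 114 CPM to 378, 356, 427 and 408 CPM (1.77 ± 0.09, adjusted p = 2.34e-15). Irf8 went from 81.6, 75.02, 116 and 94.1 CPM to 644, 544, 700 and 654 CPM (2.79 ± 0.11), and Mef2a from 28.8, 33.6, 36.5 and 37.1 CPM to 234, 264, 277 and 260 CPM (2.93 ± 0.11). Among the C/EBP genes Cebpa rose by 2.56 ± 0.09 to 835, 944, 940 and 883 CPM, Cebpb by 2.77 ± 0.19 to 204, 320, 227 and 210 CPM, and Cebpd by 2.49 ± 0.11 to 138, 144, 132 and 111 CPM. The changes of the acute phase members Cebpb and Cebpd lay within the range of the other 6 called factors on this scale. Mef2c was at 394, 364, 408 and 379 CPM in Cell-TRAP, inside the Tissue-TRAP range of 276 to 449 CPM (0.17 ± 0.10, adjusted p = 0.13).

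Of the microglial markers 272 of 282 were called higher with a median of 2.57, while 93 of the 97 neuronal markers were lower with a median of -4.69 and 177 of 233 endothelial markers tested were higher with a median of 1.81. Relative to the other microglial markers 1 member was called, Mef2c, whose sign turned (-2.43), and the sign also turned for Spi1 (-0.83), Cebpd (-0.11) and Cebpa (-0.04). On that scale Irf8 (0.20), Sall1 (0.27), Mef2a (0.33), Runx1 (0.66) and Cebpb (0.17) remained positive and were not called. The scaling also moves the whole table. With TMM, 3751 of the 8126 called genes were higher in Cell-TRAP, with DESeq2 size factors 2811 of 8021, and with the microglial markers 119 of 12774, where the median of all genes moved from -0.01 to -2.61.

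**Figure D2:**
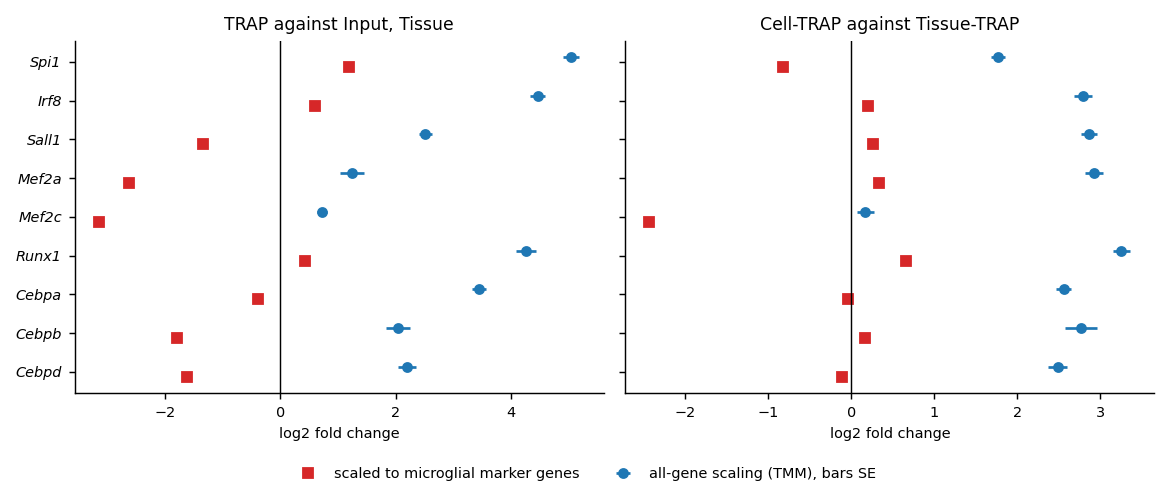
Log2 fold changes of the 9 factors in TRAP against Input of Tissue and in Cell-TRAP against Tissue-TRAP. Values are shown with TMM scaling (bars give the SE) and with libraries scaled to the other microglial markers that had counts in every library of the fit (no bars). The solid line marks no change. In Cell-TRAP against Tissue-TRAP, 8 of 9 factors lie beyond 2-fold with TMM, whereas relative to the markers only Mef2c does, at -2.43, and the signs of Spi1, Mef2c, Cebpa and Cebpd turn.

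In the Input fraction Mef2c moved against the rest. All 9 members were called between Cell-Input and Tissue-Input, against 46% of the 15750 genes tested, of which 8 rose and Mef2c fell. Runx1 rose most (4.86 ± 0.21), from 1.07 to 1.28 CPM to 30.7, 46.01, 33.1 and 26.0 CPM, followed by Irf8 (4.46 ± 0.13), Spi1 (3.87 ± 0.17), Cebpa (3.46), Sall1 (3.28), Cebpd (3.04), Cebpb (2.64) and Mef2a (2.26 ± 0.29). Mef2c fell from 238, 224, 236 and 260 CPM to 86.2, 92.4, 94.9 and 79.5 CPM (-1.44 ± 0.08, adjusted p = 2.01e-13), and its groups did not overlap. Over the same step 88 of the 97 neuronal markers fell, with a median of -2.92. Relative to the microglial markers, Mef2c stayed lower (-5.31) and Runx1 higher (1.00), and both were called. Irf8 (0.62) and Spi1 (0.01) were positive and not called. The sign turned for Mef2a (-1.62) and Cebpb (-1.21), which were called lower, and for Cebpd (-0.79), Sall1 (-0.59) and Cebpa (-0.40), which were not called.

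The cell preparation comparison gave a second set of suspensions, from mice 156, 157, 1361 and 1362. Against Tissue-TRAP 8 of 9 members were higher in Cell (-) Inhibitors-TRAP, by 1.79 for Spi1 to 2.96 for Mef2a. There 53.2% of the 14723 genes tested were called, and 3286 of these 7826 were higher. Mef2c differed by 0.18 (adjusted p = 0.375 by edgeR), with 409, 492, 455 and 558 CPM against 371, 339, 405 and 579 CPM in overlapping groups. In the Input fraction all 9 were called between Cell (-) Inhibitors and Tissue, against 44.7% of the 15753 genes tested, and Mef2c was the 1 that fell (-1.40 ± 0.15, adjusted p = 8.94e-08). The signs of Spi1 (-0.65), Mef2c (-2.26) and Cebpd (-0.10) in TRAP, and of Sall1, Mef2a, Cebpb and Cebpd in Input, turned relative to the microglial markers. Of these Mef2c in TRAP and Mef2a (-2.16), Cebpb (-1.65) and Cebpd (-1.26) in Input were called lower.

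Whether sorting before the pull-down changes these transcripts was read from the sorted TRAP libraries, averaged over the 4 sorts, against Cell-TRAP. Mice 66, 67 and 73 gave both autoMACS and autoMACS to Tyto, and mice 69, 945 and 991 both Tyto and FACSAria. The fit took all libraries as independent, so its SE and adjusted p leave this out. No sorted library came from a Cell mouse, so sorting and animal cannot be told apart. None of the 9 was called, while 24.4% of genes were. The nearest to a call was Mef2c, which rose from 364 to 408 CPM in Cell-TRAP to 458 to 682 CPM (median 589) over the 16 sorted libraries, without overlap (0.60 ± 0.08, adjusted p = 1.27e-06 by edgeR, within 2-fold). Cebpa also did not overlap, with 947 to 1346 CPM (median 1037) after sorting against 835 to 944 CPM before (0.23, adjusted p = 0.00735). Mef2a differed by 0.38 (adjusted p = 0.000401), Spi1, Sall1 and Cebpb each by 0.23 (adjusted p = 0.00767, 0.00708 and 0.182), Irf8 by 0.19 (0.0593), Cebpd by -0.06 (0.58) and Runx1 by -0.22 (0.0177), all with overlapping ranges. Over this step 93 of the 97 neuronal markers fell further, with a median of -5.68, and the microglial marker list had a median of 0.27. Relative to those markers Mef2c differed by 0.30 and Mef2a by 0.09, and the other 7 were at or below -0.07, so that the sign turned for Spi1, Irf8, Sall1, Cebpa and Cebpb.

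In the Input fraction every member was higher after sorting, as were nearly all microglial markers. All 9 members were called and higher in the sorted Input libraries than in Cell-Input. Of all genes tested 51.8% were called in either direction, and 2698 of these 8162 were higher. Of the 282 microglial markers 279 were called higher, with a median of 2.57, beside a median of 2.58 over the members. Here too the sorted libraries came from other mice than Cell-Input. The members rose by 1.06 ± 0.14 for Cebpd (adjusted p = 2.14e-07 by edgeR) to 2.89 for Spi1. Spi1 stood at 47.6, 60.8, 63.1 and 63.2 CPM in Cell-Input and at 355 to 522 CPM (median 436) after sorting, and Mef2c at 79.5 to 94.9 CPM and 464 to 593 CPM (median 522). In 8 members the ranges did not overlap, and the share of all genes without overlap was not computed. Mef2a overlapped through the autoMACS library of mouse 72, at 66.6 CPM beside 262 to 348 CPM in the other autoMACS-Input libraries and 355 to 439 CPM in the other sorts (2.16 ± 0.25). That library was the shallowest of the sort comparison, with 7129464 counts. Cebpd rose least and went below 2-fold with DESeq2 size factors (0.86) and without the Cell-Input library of mouse 949 (0.98). Relative to the microglial markers the sign turned for Cebpd (-1.47), which was called lower, and for Mef2a (-0.39), Runx1 (-0.24) and Sall1 (-0.13), which were not called. Spi1 (0.35), Irf8 (0.18), Cebpa (0.17), Cebpb (0.11) and Mef2c (0.04) stayed positive, and none of them was called.

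The 4 sorts were compared with each other by a test over the 4 groups. No member was called, against 4.17% of genes in TRAP and 7.42% in Input. In TRAP Sall1 and Mef2a had the lowest adjusted p. Sall1 in TRAP was at 936, 836, 900 and 733 CPM with autoMACS, 978, 988 and 958 CPM with autoMACS to Tyto, 1259, 1065, 1108, 1064 and 1187 CPM with Tyto, and 1017, 1166, 1371 and 1251 CPM with FACSAria, a largest difference of 0.50 on the log2 scale (adjusted p = 0.000565 by edgeR). Mef2a in TRAP was at 312, 240, 288 and 201 CPM with autoMACS and at 336 to 425 CPM with the other 3 sorts, a largest difference of 0.53 (adjusted p = 0.00117). In both genes the autoMACS libraries were the lowest, and every library of the other sorts was above every autoMACS library. In Input the adjusted p was below 0.1 for Sall1 (largest difference 0.48, adjusted p = 0.0487) and Cebpb (0.64, adjusted p = 0.0392), and again within 2-fold. Cebpb was highest with autoMACS, at 499 ± 68.3 CPM (SD, n = 4), and lowest with Tyto, at 319 ± 23.1 CPM (SD, n = 5). The other 7 members had largest differences of 0.13 to 0.45 in TRAP, and in Input Mef2a had 0.71 (adjusted p = 0.187) and the other 6 had 0.07 to 0.38. No member was called relative to the microglial markers, where Sall1 had 0.46 in TRAP and 0.41 in Input and Cebpb had 0.74 in Input. With the mouse as a block, Tyto against FACSAria in TRAP gave 14 called genes where the same libraries without the block gave 0, and no member was among them.

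The enrichment by TRAP was read again in the suspension and after sorting. In the suspension all 9 members were called higher in TRAP than in Input, against 47.6% of the genes tested, by 3.03 for Spi1, 2.88 for Irf8, 2.75 for Runx1, 2.63 for Cebpa, 2.41 for Mef2c, 2.25 for Cebpb, 2.19 for Sall1, 1.99 for Mef2a and 1.73 for Cebpd. After sorting none was called, against 18.9%, and the differences were -0.36 ± 0.09 for Cebpb (adjusted p = 0.00114 by edgeR) to 0.40 ± 0.07 for Cebpd (adjusted p = 4.08e-06). The genes called after sorting were mostly lower, 2982 of 2994. On the paired libraries alone there were 1410 with the mouse and preparation as a block and 1444 without it. With TMM 2652 of the 7535 genes called in the suspension were higher in TRAP, and with DESeq2 size factors 1577 of 7511. Relative to the microglial markers no member was called in the suspension, where Spi1 (0.38), Irf8 (0.22) and Runx1 (0.11) were positive and the sign turned for the other 6, with Cebpd the lowest (-0.91). After sorting it turned for Spi1 (-0.02), Irf8 (-0.05), Mef2a (-0.16) and Runx1 (-0.15), while Cebpb (-0.55) and Cebpd (0.22) kept theirs, none of them called.

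The difference between suspension and tissue in the size of the TRAP enrichment was tested as an interaction. It was smaller in the suspension for Spi1 (-2.02 ± 0.17, adjusted p = 9.17e-13 by edgeR), Irf8 (-1.59 ± 0.16), Runx1 (-1.52 ± 0.23), Cebpa (-0.81 ± 0.16) and Cebpd (-0.47 ± 0.20, adjusted p = 0.0465). It was larger for Mef2c (1.69 ± 0.13, adjusted p = 7.97e-14), which went from 0.72 in tissue to 2.41 in the suspension, and for Mef2a (0.75 ± 0.29, adjusted p = 0.0275). For Sall1 (-0.33 ± 0.15, adjusted p = 0.0639) the adjusted p was below 0.1 as well, and for Cebpb (0.21 ± 0.28, adjusted p = 0.528) it was not. With libraries scaled to the microglial markers the same test turned in sign for Sall1 (0.88, adjusted p = 7.38e-08), Cebpd (0.71, adjusted p = 0.00126) and Cebpa (0.39, adjusted p = 0.0145), which were then enriched more in the suspension. On that scale Mef2c (2.91), Mef2a (1.98) and Cebpb (1.41, adjusted p = 4.48e-05) were enriched more as well, Spi1 (-0.81) and Irf8 (-0.39) stayed lower, and Runx1 (-0.31) had an adjusted p of 0.207. With DESeq2 size factors Mef2a (0.42) had an adjusted p of 0.218 and the sign of Cebpb turned (-0.11, adjusted p = 0.735). All groups of this interaction came from mice 946 to 949, and the mouse was not fitted as a block. The SE and adjusted p therefore leave the pairing out.

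The inhibitors of transcription and translation were added to ask what dissociation itself induces. In TRAP they lowered 1 of the 9 factors past 2-fold, Cebpb, in a comparison in which 0.638% of genes were called (94 of 14723, of which 93 were lower). Cebpb stood at 236, 233, 296 and 472 CPM in Cell (-) Inhibitors-TRAP of mice 156, 157, 1361 and 1362, and at 94.6, 95.3, 78.1 and 103 CPM in Cell (+) Inhibitors-TRAP of the same mice. The groups did not overlap, and the sample without inhibitors from mouse 1362 was the highest of all. The log2 change was -1.74 ± 0.21 (adjusted p = 3.51e-05 by edgeR). With inhibitors Cebpb was still above Tissue-TRAP, at 50.9, 71.7, 63.0 and 37.8 CPM, by 0.73 ± 0.20 (adjusted p = 0.00365), but relative to the microglial markers it was below it (-1.65, called).

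Cebpa and Cebpd followed in the same direction within 2-fold. Cebpd was at 125, 128, 143 and 130 CPM without and 79.996, 86.9, 78.5 and 63.2 CPM with inhibitors (-0.77 ± 0.18, adjusted p = 0.0353 by edgeR). Cebpa was at 1056, 1210, 1149 and 1220 CPM without and 810, 783, 712 and 719 CPM with inhibitors (-0.62 ± 0.12, adjusted p = 0.00721). Neither gene's groups overlapped. Runx1 did not overlap either, at 128.9, 139, 141 and 153 CPM against 105, 97.5, 106 and 128.6 CPM, but its change of -0.36 ± 0.15 had an adjusted p of 0.393. The remaining 5 had overlapping groups and changes of -0.19 for Irf8 to -0.04 for Mef2a, with adjusted p of 0.638 or more; Spi1 differed by -0.06 and Sall1 by -0.14, and the sign of Mef2a turned relative to the microglial markers (0.01). With the mouse as a block the count of called genes was 150 (116 without the block on the same libraries), and Cebpb was again the 1 member called (-1.67). Cebpb was also the 1 member called relative to the microglial markers (-1.68), whose mean level was 8.26 without and 7.97 with inhibitors, and 25 of whose 282 genes were themselves lower.

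In Input Cebpb was again the factor that fell, and Cebpa came before Cebpd. Cebpb fell from 61.8, 80.002, 56.8 and 111 CPM to 29.9, 24.1, 19.0 and 39.2 CPM (-1.47 ± 0.21, adjusted p = 0.000461 by edgeR), the 1 member called, against 0.311% of genes. Cebpa went from 246, 380, 210 and 322 CPM to 152, 147, 150 and 190 CPM (-0.86 ± 0.18, adjusted p = 0.0323), with no overlap and within 2-fold. Cebpd went from 42.2 to 55.2 CPM to 33.3 to 46.6 CPM (-0.42 ± 0.17, adjusted p = 1), with overlap. The other 6 differed by -0.10 to 0.10. With libraries scaled to the markers Cebpb (-1.47) was the 1 member called, with Cebpa at -0.83 and Cebpd at -0.43. No member's response to inhibitors passed the interaction test between TRAP and Input with TMM, DESeq2 size factors or the marker scaling. The mouse was not fitted as a block in this test. With TMM the differences of the C/EBP genes were -0.28 ± 0.30 for Cebpb, 0.23 ± 0.22 for Cebpa and -0.36 ± 0.25 for Cebpd.

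**Figure D3:**
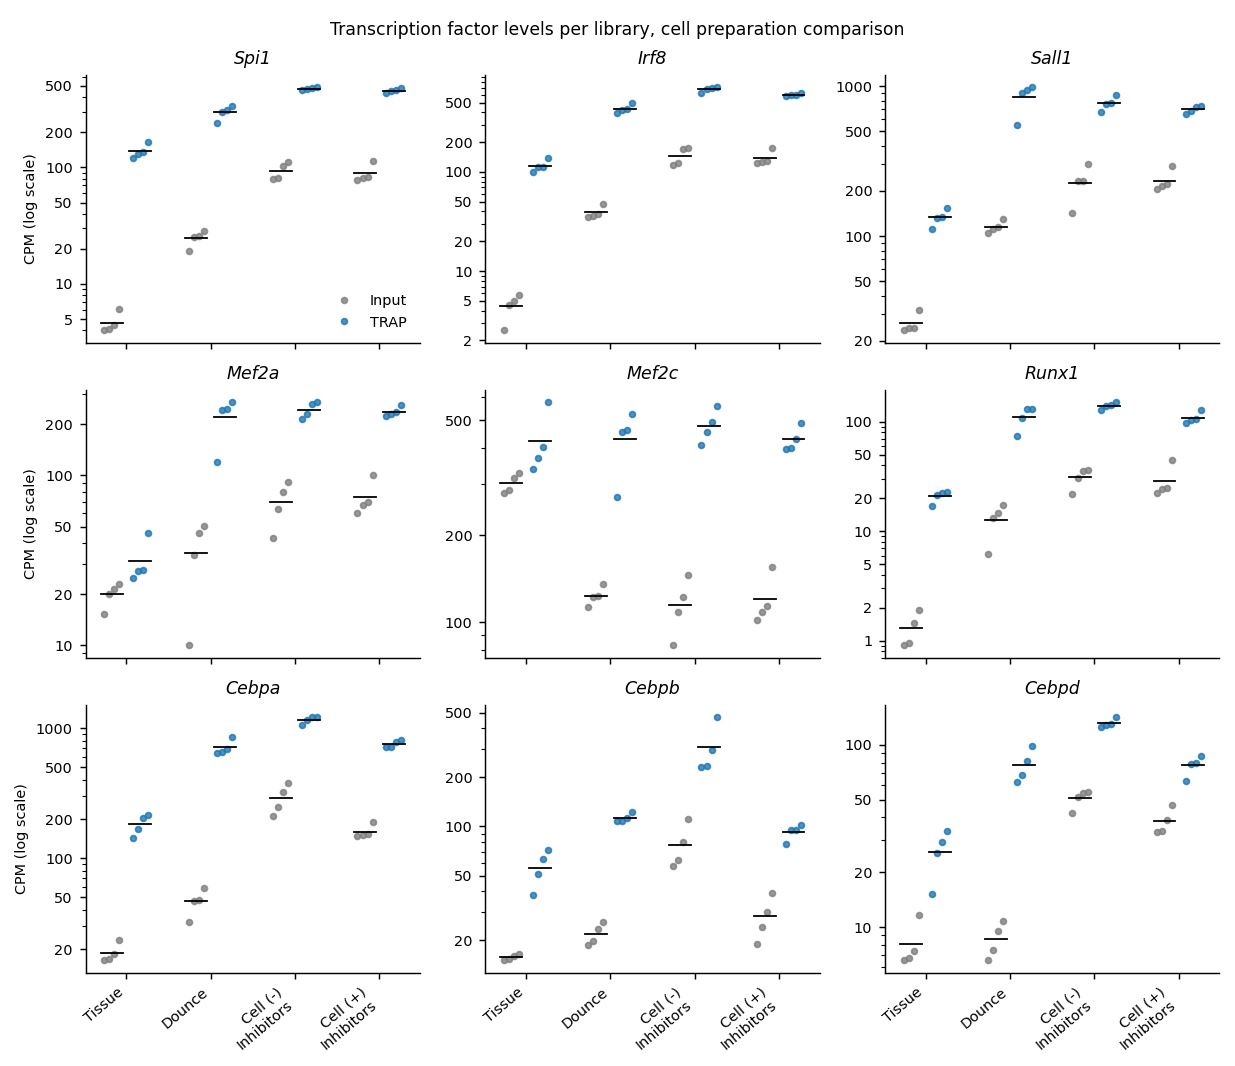
Levels of the 9 transcription factors in each library of the cell preparation comparison, as CPM on a log axis, for Tissue, Dounce and Cell without and with inhibitors in TRAP and Input; every point is 1 library. Cebpb in TRAP is at 233 to 472 CPM without inhibitors and 78.1 to 103 CPM with them, while Spi1 stays at 433 to 493 CPM in both.

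**Figure D4:**
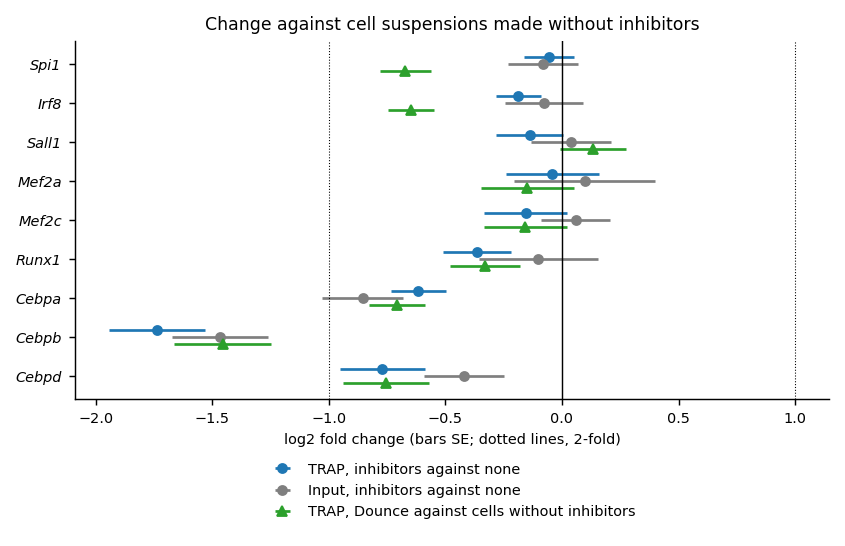
Log2 fold changes ± SE of the 9 factors with TMM scaling. Shown are Cell (+) against Cell (-) Inhibitors in TRAP and in Input, and Dounce against Cell (-) Inhibitors in TRAP. Dotted lines mark 2-fold. Cebpb is the 1 factor beyond 2-fold in each, at -1.74 and -1.45 in TRAP and -1.47 in Input. Relative to the microglial markers the TRAP values are -1.68 and -0.97.

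The Dounce libraries came from mice 179 to 182, which gave no other preparation, so preparation and animal cannot be told apart. After Dounce dissociation, which used no enzyme and stayed cold, Cebpb in TRAP was low as well. It was at 108, 108, 112 and 123 CPM in Dounce-TRAP, beside 78.1 to 103 CPM with inhibitors, a difference that was not tested, and all 4 libraries lay below the 233 to 472 CPM of Cell (-) Inhibitors-TRAP (-1.45 ± 0.21, adjusted p = 1.23e-05 by edgeR), and it was the 1 member called, against 28.7% of genes. Cebpd (-0.75, adjusted p = 0.00227), Cebpa (-0.71), Spi1 (-0.67) and Irf8 (-0.65) were lower within 2-fold. Sall1 (0.13), Mef2a (-0.15), Mef2c (-0.16) and Runx1 (-0.33) had adjusted p of 0.455, 0.561, 0.482 and 0.07. Dounce-TRAP of mouse 181, the shallowest library at 2471448 counts, was the lowest of its group for Spi1 (239 CPM), Irf8 (393 CPM), Sall1 (552 CPM), Mef2a (120 CPM), Mef2c (272 CPM) and Runx1 (74.9 CPM), but not for Cebpa, Cebpb or Cebpd.

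The make-up of the Dounce samples moved as well. RNA quality differed too, as described above, and its part in the Dounce differences was not tested. In Dounce-TRAP the mean level of the microglial markers was 7.56 against 8.26 in Cell (-) Inhibitors-TRAP, and that of the neuronal markers 4.22 against 1.98, with 84 of 96 neuronal markers tested called higher. Snap25 was at 326 to 383 CPM in Dounce-TRAP and 22.5 to 53.2 CPM in Cell (-) Inhibitors-TRAP. Relative to the microglial markers Cebpb stayed lower in Dounce-TRAP (-0.97, adjusted p = 0.00126) within 2-fold, Cebpd was at -0.28, Cebpa at -0.22, Spi1 at -0.20 and Irf8 at -0.16. Sall1 was higher within 2-fold (0.60, adjusted p = 0.000509), and the signs of Mef2a, Mef2c and Runx1 became positive (0.31, 0.31 and 0.13), none of them called. Against Tissue-TRAP 8 of 9 members were called higher in Dounce-TRAP, where 50.3% of genes were called and 3414 of these 7407 were higher. In Cell (+) Inhibitors-TRAP 7 of 9 were called higher, and Cebpb and Mef2c were not called. There 52.8% of genes were called, and 3183 of these 7776 were higher. Against Tissue-TRAP the sign of Spi1 (-0.65), Mef2c (-2.36), Runx1 (-0.016), Cebpa (-0.33), Cebpb (-1.65) and Cebpd (-0.81) turned with inhibitors when libraries were scaled to the microglial markers. Of these Mef2c and Cebpb were called lower. For Cebpb the Dounce difference, 1.02 ± 0.21 (adjusted p = 0.000297), lay at the 2-fold limit and fell within it with DESeq2 size factors (0.96), with no filter (0.94), or without the Tissue-TRAP library of mouse 949 (0.87). On the scale of the microglial markers the sign turned in Dounce-TRAP against Tissue-TRAP for Spi1 (-0.84), Irf8 (-0.03), Mef2c (-1.95), Cebpb (-0.94) and Cebpd (-0.38). Of these only Mef2c was called.

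Per the study's description Dounce-Input needed a whole brain, where the other preparations used a single hemisphere. In Input the Dounce samples were lower than Cell (-) Inhibitors for 6 members. Of all genes tested 56.8% were called in either direction, and 4419 of these 8952 were lower. Cebpa (-2.63), Cebpd (-2.58), Spi1 (-1.91), Irf8 (-1.90), Cebpb (-1.82) and Runx1 (-1.27 ± 0.27) fell. Sall1 (-0.98, adjusted p = 3.89e-05) and Mef2a (-0.96, adjusted p = 0.00829) stayed just within 2-fold, and Mef2c differed by 0.10 (adjusted p = 0.528). Cebpa was at 246, 380, 210 and 322 CPM in Cell (-) Inhibitors-Input and 47.6, 46.7, 32.6 and 59.3 CPM in Dounce-Input. Cebpd was at 55.2, 54.5, 42.2 and 51.7 CPM against 9.503, 6.56, 10.7 and 7.52 CPM, which overlapped Tissue-Input at 6.63 to 11.7 CPM. The microglial markers fell together with them, 217 of 282 with a median of -1.55, and relative to these markers Cebpa (-1.10) and Cebpd (-1.05) stayed called lower, Mef2c was called higher (1.64), and the sign turned for Runx1 (0.23), Sall1 (0.56) and Mef2a (0.53), none of them called.

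Genes known to be driven by these factors were counted from lists of textbook targets. Whether the listed genes changed here through these factors was not tested. The lists were chosen with earlier results of these data known, so their counts and medians are a description and not a test. The paper itself reports higher Il1b and Il6 in Cell-TRAP than in Tissue-TRAP. The list for C/EBPβ and C/EBPδ held 9 genes, of which 7 were tested in TRAP. With inhibitors, where 0.638% of genes were called, 4 of the 7 fell, none rose, and the median was -3.39 against -0.03 over all genes. They were Il1b (-4.83 ± 0.53) and Tnf (-4.28 ± 0.43), both inflammatory cytokines, Socs3 (-4.18 ± 0.17), a feedback inhibitor of cytokine signalling, and Ptgs2 (-3.39), the inducible cyclooxygenase. With libraries scaled to the microglial markers 4 of 7 fell as well, with a median of -3.33. Socs3 was at 397, 458, 543 and 690 CPM in Cell (-) Inhibitors-TRAP, 28.0, 25.8, 28.0 and 33.2 CPM with inhibitors, 21.9, 13.6, 12.3 and 15.2 CPM in Dounce-TRAP, and 5.68, 6.09, 6.49 and 5.93 CPM in Tissue-TRAP. No library with inhibitors or from Dounce reached a library without, and none of them was as low as Tissue. In Input, where 0.311% of genes were called, 3 of 8 fell (Socs3, Tnf and Il1b), with a median of -1.05. Before dissociation, where 11.1% of genes were called, 1 of 8 was enriched in Tissue-TRAP over Tissue-Input. It was Il6, another cytokine, at 6 to 12 counts in a Tissue-TRAP library and 0 to 2 in a Tissue-Input library. None of the 8 was higher there and 7 were lower relative to the microglial markers.

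In Cell-TRAP against Tissue-TRAP, where 54.3% of genes were called, 5 of the 7 rose, with a median of 4.03. Among them were Tnf, Socs3 (6.57) and Il1b (6.49). Pparg, a lipid-regulating nuclear receptor with 0 to 12 counts in a Cell-TRAP library and 18 to 34 in a Tissue-TRAP library, fell (-1.81). Relative to the microglial markers 4 were higher and 2 lower, with a median of 1.45. Tnf was at 0.123 to 0.310 CPM in Tissue-TRAP and 207, 72.6, 74.4 and 66.0 CPM in Cell-TRAP. In Dounce-TRAP against Cell (-) Inhibitors-TRAP, where 28.7% of genes were called, 6 of 7 fell and Pparg rose, with a median of -2.74. Relative to the microglial markers 5 of the 7 fell, with a median of -2.27.

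The list of PU.1 and C/EBPα targets held 10 genes, all tested. Over all genes 54.3% were called in Cell-TRAP against Tissue-TRAP and 11.1% in Tissue-TRAP against Tissue-Input. All 10 rose in Cell-TRAP against Tissue-TRAP, with a median of 2.75 (Tlr4, an endotoxin receptor, 3.71; Itgam, which encodes CD11b, 3.08; Cybb, a subunit of the phagocyte oxidase, 2.85), and 9 of 10 were enriched in Tissue-TRAP over Tissue-Input, with a median of 4.41. Relative to the microglial markers these medians were 0.15 and 0.57, with 1 higher and 1 lower in the first and 1 lower in the second. With inhibitors none of the 10 was called in TRAP or Input by edgeR, with medians of 0.01 and 0.08. None was called in Dounce-TRAP against Cell (-) Inhibitors-TRAP, with a median of -0.33, which became 0.14, with 1 called higher, relative to the microglial markers.

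Relatives of the 9 factors were counted in the same way. Over all genes tested 54.3% were called in Cell-TRAP against Tissue-TRAP, and 3751 of these 8126 were higher. In Cell-TRAP against Tissue-TRAP all 12 other ETS factors tested rose (Elf1 3.72, Elf4 3.19 and Fli1 3.09, with a median of 2.10), as did all 8 other IRF genes (Irf1 2.71, Irf4 2.58 and Irf5 2.38) and 2 of 3 C/EBP relatives, Cebpz (1.33) and Cebpg (1.29). Of the SALL and MEF2 relatives tested, Sall3 rose (2.30), and the other SALL gene and Mef2d were not called. Of the RUNX family and its partner, 2 rose, including Cbfb (2.02), and Runx1t1 (-3.54) and Runx2 (-1.65) fell. Of 16 other macrophage factors tested, 13 rose and 1 fell (among them Prdm1 2.97 and Ikzf1 2.91). The list medians turned when libraries were scaled to the microglial markers, to -0.49 for the ETS list (1 higher, 3 lower), -0.56 for the IRF list (2 lower), -1.30 for the C/EBP relatives (3 lower) and -0.85 for the other macrophage factors (7 lower). With inhibitors the calls among these relatives in TRAP were confined to Ets2, an immediate response ETS factor (-1.22), which was lower in Dounce-TRAP than in Cell (-) Inhibitors-TRAP too (-2.10).

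Levels of different genes were compared per kb of exon. The exon length used for Cebpd, 3746 bases, is longer than the gene at the coordinates given above. Its values per kb may therefore be too low. In FACSAria-TRAP the order was Cebpa (417 ± 64.9 CPM per kb of exon, SD, n = 4), Sall1 (228), Irf8 (220), Spi1 (218), Cebpb (173 ± 56.4), Mef2c (81.3), Mef2a (64.5), Cebpd (33.2) and Runx1 (22.7). Sall1, Irf8, Spi1 and Cebpb did not differ beyond their spread there. Tissue-Input began instead with Mef2c (32.8 CPM per kb), followed by Cebpb (6.55), Cebpa (6.12) and Sall1 (4.61), and ended with Runx1 (0.156). In Tissue-TRAP Cebpa (57.99), Spi1 (56.6) and Mef2c (47.05) were at the top with overlapping ranges. Runx1 was the lowest of the 9 per kb of exon in each of these 3 groups.

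The genes whose log2 levels followed each member most closely were listed by Pearson correlation over the 48 libraries of the sort comparison, which share steep differences in microglial content, so that high values are usual. For Spi1 the nearest was Trem2, a microglial lipid receptor (r = 0.998), for Irf8 Unc93b1 (0.997), which carries Toll-like receptors to endosomes, for Sall1 Edem1 (0.995), for Runx1 Il6ra (0.996), for Cebpa Cmtm6 (0.996), for Mef2a Gbgt1 (0.991), for Cebpb Fam46a (0.988) and for Cebpd Ifi35 (0.986). Mef2c had the lowest best match, Slc8a1, a sodium and calcium exchanger (0.978), and its correlation with the other members was 0.60 to 0.71. In the 32 libraries of the cell preparation comparison Mef2c was again the loosest member, at 0.42 to 0.60, and the nearest genes were C1qc for Spi1 (0.997), Itgb2 for Irf8 (0.997), Ccl24 for Cebpb (0.967) and Shc1 for Cebpd (0.969).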

How the data were processed

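The authors made directional poly(A) libraries, sequenced them on a NovaSeq, aligned the reads to mm10 in Strand NGS with strand taken into account, removed duplicates and normalized with DESeq2. They deposited expected counts per gene, which need not be whole (33.2% and 20.8% of values were), beside normalized log2 values. The deposited expected counts were rounded and tested here. The deposited log2 values were used only for an alternative with limma. Columns of the authors' own comparisons were not used, and 0 sample columns were left unmapped.

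Groups were taken from the sample labels and mouse numbers. The count table of each experiment and fraction was fitted once over all its groups in edgeR 4.0.16 (R 4.3.3) with TMM scaling, and a gene was kept if all libraries of some group exceeded 5 counts. TRAP against Input was fitted over both fractions of the sort comparison. Sort contrasts average the 4 sorts. Called genes had an adjusted p below 0.1 and a change over 2-fold. SE is the absolute log2 change over the square root of F. Every group is 3 to 5 mice, the replicates, each giving a hemisphere or, for Dounce-Input, a whole brain. The scripts were tested on simulated data.

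Alternatives were DESeq2 size factors, DESeq2 1.42.0, no filter, at least 10 counts, limma 3.58.1, scaling to the microglial markers, the mouse as a block, and leaving out each library. Same-numbered libraries are the same animal; their deviations correlated at 0.03 to 0.15 (Cell-TRAP and Tissue-TRAP), -0.05 to 0.04 (Cell-Input and Tissue-Input), 0.10 to 0.48 and -0.05 to 0.10 (inhibitors in TRAP and in Input), 0.12 to 0.43 (TRAP and Input of Tissue or Cell) and -0.01 to 0.35 (pairs of sorts). The members, gene lists and tests were chosen with earlier results of these data known. All 9 factors were to be described in each comparison, some of them by their range, with up to 3 genes per list with the largest called changes, and for each factor the gene nearest by Pearson r of log2(CPM + 1), among genes with a mean of at least 1 CPM; Ptgs2 and Pparg were named after their values were seen. A gene that the rule would name is not reported here.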

Additional observations from a re-analysis of the deposited data

Results flagged for a closer look

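In 11 of 162 groups of 4 or 5 libraries 1 library stood apart from the rest by Dixon's test at the 95% level, where chance gives about 1 in 20 groups. The Cell (+) Inhibitors-Input library of mouse 1362 was the highest of its group for Spi1 (115 CPM, others 77.4 to 82.7), Irf8 (177 CPM, others 123 to 130), Runx1 (44.5 CPM, others 22.4 to 24.6) and Cebpa (190 CPM, others 147 to 152). In the Tissue groups of the cell preparation comparison, mouse 949 was highest for Sall1 in Input (32.1 CPM, others 23.5 to 24.5) and for Mef2a in TRAP (45.7 CPM, others 24.7 to 27.8), and mouse 947 for Cebpd in Input (11.7 CPM, others 6.63 to 7.37). In Cell-Input mouse 946 was lowest for Spi1 (47.6 CPM, others 60.8 to 63.2) and mouse 947 highest for Cebpb (87.9 CPM, others 50.7 to 54.2). In Tyto-TRAP mouse 69 was lowest for Irf8 (622 CPM, others 722 to 760) and mouse 823 highest for Runx1 (206 CPM, others 157 to 169).

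The enrichment by TRAP was compared between suspension and tissue in edgeR's interaction test, without the mouse as a block. At an adjusted p below 0.1, Spi1 (-2.02), Irf8 (-1.59), Runx1 (-1.52), Cebpa (-0.81), Cebpd (-0.47) and Sall1 (-0.33) were enriched less in the suspension, and Mef2c (1.69) and Mef2a (0.75) more. Of these factors Spi1, Irf8, Runx1 and Mef2c also differed by more than 2-fold. The share of all 15825 genes tested that passed was not computed, so how many factors passed cannot be set against it. The direction turned relative to the microglial markers for Cebpa (0.39), Cebpd (0.71) and Sall1 (0.88). Runx1 (-0.31) no longer passed on that scale, nor did Mef2a with DESeq2 size factors (0.42).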

How the results depend on the processing

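Scaling to the other microglial markers changed most. The count of members called went from 8 to 1 in Cell-TRAP against Tissue-TRAP, from 8 to 1 in Cell (-) Inhibitors-TRAP and in Dounce-TRAP against Tissue-TRAP, from 7 to 2 in Cell (+) Inhibitors-TRAP against Tissue-TRAP, from 9 to 4 in Cell-Input and from 9 to 5 in Cell (-) Inhibitors-Input against Tissue-Input, from 9 to 1 in sorted against Cell-Input, from 6 to 3 in Dounce-Input and from 1 to 0 in Dounce-TRAP against Cell (-) Inhibitors, and from 9 to 0 in TRAP against Input of Cell. The genes called went from 8126 to 12774, 7826 to 12510, 7407 to 11249, 7776 to 12429, 7248 to 14514, 7043 to 14607 and 8162 to 14165 in the first 7 of these, from 7535 to 14473 in the last, and from 1756 to 15239 in TRAP against Input of Tissue; the all-gene median moved by construction.

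In Cell-TRAP against Tissue-TRAP this scaling reversed Spi1 (-0.83), Mef2c (-2.43), Cebpa (-0.043) and Cebpd (-0.11), and in Cell (-) Inhibitors-TRAP Spi1 (-0.65), Mef2c (-2.26) and Cebpd (-0.10). It reversed Spi1 (-0.65), Mef2c (-2.36), Runx1 (-0.016), Cebpa (-0.33), Cebpb (-1.65) and Cebpd (-0.81) in Cell (+) Inhibitors-TRAP, and Spi1 (-0.84), Irf8 (-0.033), Mef2c (-1.95), Cebpb (-0.94) and Cebpd (-0.38) in Dounce-TRAP, each against Tissue-TRAP. In Cell-Input against Tissue-Input it reversed Sall1 (-0.59), Mef2a (-1.62), Cebpa (-0.40), Cebpb (-1.21) and Cebpd (-0.79), and in Cell (-) Inhibitors-Input Sall1 (-0.84), Mef2a (-2.16), Cebpb (-1.65) and Cebpd (-1.26). In sorted against Cell-Input it reversed Sall1 (-0.13), Mef2a (-0.39), Runx1 (-0.24) and Cebpd (-1.47), and in Dounce-Input against Cell (-) Inhibitors-Input Runx1 (0.23). In TRAP against Input it reversed Sall1 (-1.34), Mef2a (-2.63), Mef2c (-3.15), Cebpa (-0.39), Cebpb (-1.79) and Cebpd (-1.61) in Tissue, and Sall1 (-0.45), Mef2a (-0.65), Mef2c (-0.24), Cebpa (-0.0032), Cebpb (-0.38) and Cebpd (-0.91) in Cell. In the interaction of the 2, an alternative chosen after seeing the data, it reversed Sall1 (0.88), Cebpa (0.39) and Cebpd (0.71).

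Leaving out 1 library, members called ranged from 6 to 8 in Dounce-Input against Cell (-) Inhibitors-Input, 7 to 8 in Dounce-TRAP against Tissue-TRAP and 8 to 9 in sorted against Cell-Input. Sall1 and Mef2a passed 2-fold in Dounce-Input without the Cell (-) Inhibitors-Input library of mouse 1361 (-1.15 and -1.13) or Dounce-Input of mouse 179 (-1.05 and -1.19), Mef2a also without mouse 180 (-1.11), and both with limma (-1.01 and -1.25). Cebpb in Dounce-TRAP against Tissue-TRAP also went within 2-fold without Dounce-TRAP of mouse 182 or Tissue-TRAP of mouse 946 (both 0.97). The mouse as a replicate block was fitted on the paired libraries alone and changed no member's call; the called genes were 257 with and 229 without it in TRAP for autoMACS to Tyto against autoMACS, 142 and 118 in Input, and 14 and 0, and 0 and 0, for Tyto against FACSAria. Totals of 2471448 to 4724538 counts in Dounce-TRAP limit what could be seen there.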
